A study of Homo sapiens with 6 samples.

Results

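The ribosomal protein S6 kinases and their relatives, the RSK and MSK kinases, were examined here as a family of 10 genes in human embryonic stem cells (hESCs) that carry a deletion in one of them. The members were the rows of the raw count table with the symbols RPS6KB1, RPS6KB2, RPS6KA1 to RPS6KA6, RPS6KC1 and RPS6KL1, which were 10 of 61155 symbols. All 10 were found, and all 10 passed the filter on low counts that left 19521 genes in the test. RPS6KB1 encodes S6K1, the kinase that the study deleted, so its own value serves as a check of the labels, and the question for the other 9 was whether their RNA differed when S6K1 was disrupted.

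Bulk poly(A) RNA sequencing was performed on H7, an established line of hESCs that was grown without feeder cells. Wild-type (WT) cells with no edit were compared with S6K1-/- cells made with CRISPR/Cas9 aimed at exons 9 and 11 of RPS6KB1, with 3 libraries in each group. The cells were undifferentiated per the labels' treatment field, although the same labels also give Week 5 for all 6 samples and call the genotype a knockdown. The study's methods and text describe a clonal knockout, and the S6K1-/- cells sequenced were 1 clone, so that the genotype and the clone cannot be told apart. Neither source says that the 3 libraries of a group came from separate cultures, and the p-values measure only the spread between these libraries, which may be technical. In a bulk sample, fewer cells of a type and less RNA per cell cannot be told apart.

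S6 kinases are serine/threonine kinases of the AGC group. S6K1 and S6K2 (RPS6KB2) are switched on by mTORC1 and PDK1 when nutrients and growth factors are present, and phosphorylate ribosomal protein S6 and factors of translation. The RSK kinases (RPS6KA1, RPS6KA2, RPS6KA3 and RPS6KA6) act below ERK. The MSK kinases (RPS6KA4 and RPS6KA5) act below ERK and p38 and phosphorylate histone H3 and CREB. RPS6KC1 and RPS6KL1 are divergent relatives whose activity is less well described.

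The sequences that bear on the reading of RPS6KB1 are its targeted exons, the oligonucleotides of the labels, and the copies of those exons elsewhere in the genome. On the GRCh38 build, RPS6KB1 lies on the plus strand of chromosome 17 (chr17:59893046-59950574). Its RPS6KB1-201 transcript has 15 exons and 5428 nt, of which 1575 nt are coding. Exons 9 to 11 span 1844 bp of the genome, lie wholly within the coding sequence, and hold 262 coding nt, which leaves a remainder of 1 when divided into codons. They make up 16.63% of the coding sequence and 4.83% of the transcript, while the last exon alone holds 74.13% of the transcript. Exon 9 (chr17:59934434-59934524, plus strand) is shown with its copies at chr17:20724859-20724949 on the plus strand and at chr17:62238787-62238877 on the minus strand. Each is read 5′ to 3′, and capitals mark the bases of a copy that differ from exon 9.
RPS6KB1 exon 9: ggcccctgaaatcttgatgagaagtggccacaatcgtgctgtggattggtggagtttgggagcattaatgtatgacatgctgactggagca
copy on 17p: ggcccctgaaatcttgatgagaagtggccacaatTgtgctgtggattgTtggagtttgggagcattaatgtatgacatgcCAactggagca
copy on 17q: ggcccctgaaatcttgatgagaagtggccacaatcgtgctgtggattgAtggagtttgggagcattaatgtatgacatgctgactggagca

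The copy on the short arm differed from exon 9 at 4 positions and the copy on the long arm at 1. These copies are parts of longer blocks. A search of the coding exons of each member against the genome, counting matches of at least 50 bp with at least 90% identity, found copies of 11 of the 15 coding exons of RPS6KB1, which cover 75.3% of its coding bases. The block on 17p (chr17:20716483-20737124) holds exons 5 to 15 with 93.7% to 100% identity, and the block on 17q (chr17:62231470-62247153) holds exons 5 to 13 over the same range of identity. The noncoding part of the last exon also has a copy on 17p, with 94.4% identity over an alignment of 3817 bp. Of the other 9 members, RPS6KC1 had a copy of 1 coding exon and the other 8 had 0.

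**Figure D1:**
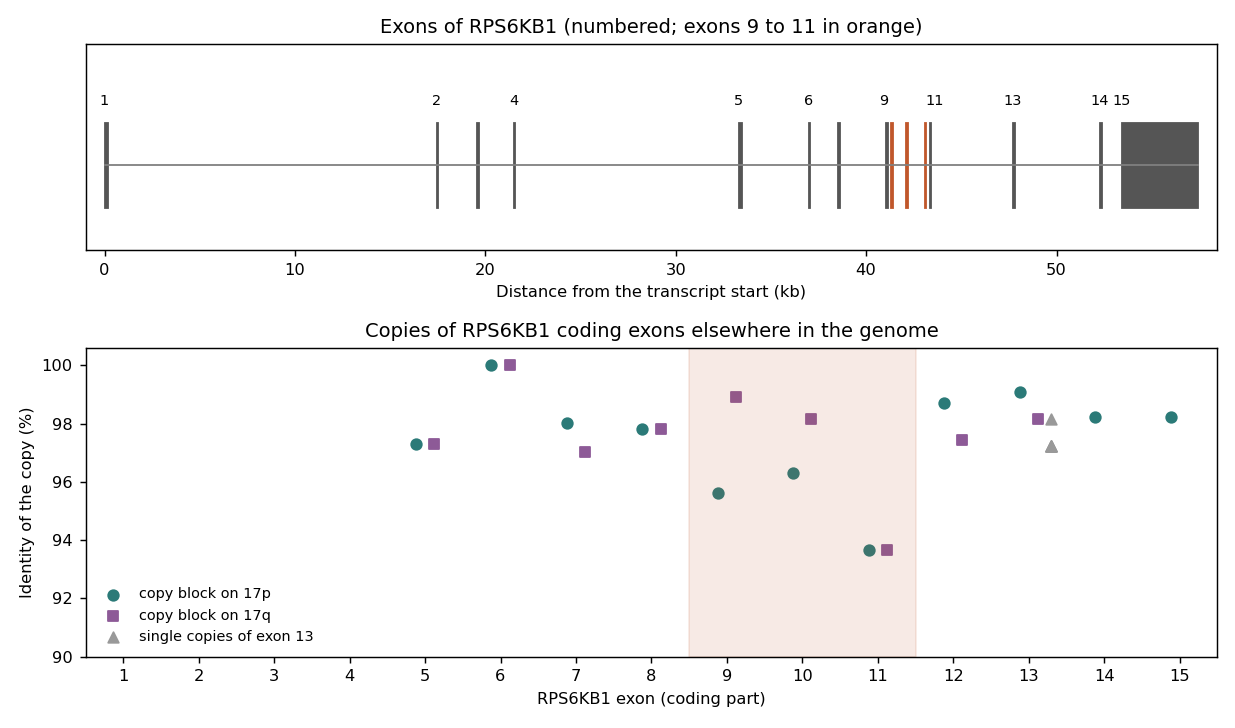
The upper panel draws the 15 exons of RPS6KB1 to scale against distance from the transcript start in kb, with exons 9 to 11 in orange, and the lower panel plots the identity in percent of each genomic copy of a coding exon against the exon number, with exons 9 to 11 shaded. Exons 1 to 4 have no copy under these limits, exons 5 to 13 have one in both blocks, exons 14 and 15 have one in the 17p block, and the copies lie between 93.7% and 100% identity.

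The 4 oligonucleotides that the labels give as guide RNAs were matched to both strands of chromosome 17, and other chromosomes were not searched. They are shown because the labels and methods give them for the edit. Both call them guide RNAs, whether they served as guides or as PCR primers was not tested, and the ends of the deletion in the clone were not analysed here. All are lower case, 5′ to 3′.
E9-For: ttaaacataattggtttggggg
E9-Rev: gcagcttttaactgtgcaccta
E11-For: aaaagaaatgctgcttctcgtc
E11-Rev: aggaagaaaagttgaggggact

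E9-For (chr17:59934273-59934294, plus strand) lies in the intron after exon 8 and E9-Rev (chr17:59934526-59934547, minus strand) in the intron after exon 9. E11-For (chr17:59936221-59936242, plus strand) lies in exon 11 and E11-Rev (chr17:59936426-59936447, minus strand) in the intron after it. The first pair encloses 275 bp, the second pair 227 bp, and the outermost oligonucleotides 2175 bp, which are distances between oligonucleotides and not the size of the deletion. The 3 bases that follow each on its own strand were TAA for E9-For, CTG for E9-Rev, TGG for E11-For and AGA for E11-Rev, so that 1 of the 4 was followed by the NGG motif that the Cas9 of *Streptococcus pyogenes* reads. E9-Rev also matched exactly at chr17:20724951-20724972, next to the exon 9 copy on 17p.

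The library totals were 21896698 to 24473013 counts, and mitochondrial genes took 8.54% to 9.74% of them, so depth was similar in the groups. Across all genes, 496 were lower and 278 higher in S6K1-/- cells at an adjusted p under 0.001 (edgeR quasi-likelihood test, Benjamini-Hochberg), the threshold that the study used. These are 2.54% and 1.42% of the genes tested, and 3.96% in both directions. Levels are given as CPM, the usual unit in which a count is divided by the size of its library, here after TMM scaling of the sizes. Each of the 10 pluripotency genes on the marker list was detected, with a summed level of 6204 to 6341 CPM in WT and 5847 to 5870 in S6K1-/- libraries. POU5F1, the gene of OCT4, was at 181 ± 3.71 CPM (SD, n = 3) in WT and 177 ± 16.5 (n = 3) in S6K1-/- cells. DNMT3B, a DNA methyltransferase gene, was the 1 gene of this list called, and fell from 1412 ± 16.3 to 1106 ± 48.5 CPM (SD, n = 3 each, log2 difference -0.35, edgeR adjusted p = 4.88e-05). The summed level of 12 forebrain and neuronal markers was 70.4 to 75.1 CPM in WT and 34.9 to 35.4 in S6K1-/- libraries. Most of this difference lay in STMN2. Of the 12 genes, 5 had at most 3 counts in every library and 7 were tested, with 2 called lower and 1 higher (edgeR). STMN2, a tubulin-binding protein of neurons, fell from 49.9 ± 1.71 to 15.3 ± 0.260 CPM and DCX, a microtubule protein of young neurons, from 11.1 ± 0.651 to 7.65 ± 0.411, whereas PAX6, a transcription factor of neural and eye progenitors, rose from 4.47 ± 0.447 to 7.58 ± 0.729 (SD, n = 3 each). NEUROD6 and TBR1 were at 0 counts in all 6 libraries. The sum of 8 mesendoderm markers was 17.6 to 21.8 CPM in WT and 17.8 to 18.3 in S6K1-/- libraries, with HAND1 at 0 counts. For all 4 tested genes of this list the groups did not overlap, as for 30.7% of all genes tested. The same held for 6 of 10 pluripotency genes and 5 of 7 tested forebrain and neuronal genes. None of the 4 mesendoderm genes passed an adjusted p under 0.001 with edgeR. FOXA2, a transcription factor of endoderm, was at 6.09 ± 1.42 and 3.32 ± 0.0608 CPM (log2 difference -0.88, edgeR adjusted p = 0.00108), and MIXL1, a transcription factor of mesendoderm, at 11.0 ± 0.560 and 12.9 ± 0.281 CPM (log2 difference 0.24, adjusted p = 0.0449). The part of these marker genes in the values of the family members was not tested.

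RPS6KB1 was the only member whose RNA passed the threshold, and it fell. WT replicates 1 to 3 had 831, 791 and 777 counts, and S6K1-/- replicates 1 to 3 had 464, 464 and 438. All 3 S6K1-/- libraries were below all 3 WT libraries. Scaled for library size, the level was 33.3 ± 0.994 CPM in WT (SD, n = 3) and 19.8 ± 0.371 CPM in S6K1-/- cells (SD, n = 3). The log2 difference was -0.75 with a standard error of 0.057 and a 95% interval of -0.87 to -0.63 (edgeR quasi-likelihood test, adjusted p = 2.52e-07). S6K1-/- cells thus retained 59.4% of the WT level, with an interval of 54.6% to 64.6%. The gene ranked 118th by p and 957th by size of the log2 difference among the genes tested.

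The RPS6KB1 row is 1 value for the whole gene in each library, so the reads of exons 9 to 11 are not separated from those of the other exons. A gene count in which the targeted exons hold so small a share of the transcript measures how much RPS6KB1 RNA there is, and does not show whether those exons are missing from it. Reads of exons 5 to 15 may also fit the copies on chromosome 17. The identity of these blocks was 93.7% to 100% over the coding exons and 94.4% over the noncoding part of the last exon. How well such reads fit the copies was not tested. Whether reads that fit more than one place were counted is not given in the sources used here, and the share of the RPS6KB1 count that such reads hold was not tested.

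RPS6KB2, the paralog of RPS6KB1 that encodes S6K2, had counts of 891, 1016 and 931 in WT and 905, 1035 and 908 in S6K1-/- libraries. The groups overlapped, with the second library of each group the highest. The level was 39.3 ± 2.45 CPM in WT (SD, n = 3) and 41.2 ± 2.39 in S6K1-/- cells (SD, n = 3). The log2 difference was 0.07 with an interval of -0.06 to 0.19 (edgeR, adjusted p = 0.540), which allows for values between a fall of 4.20% and a rise of 14.3%. RPS6KB2-AS1, an antisense RNA gene on the opposite strand, shares 470 bp with the exons of RPS6KB2, or 8.08% of them. Its counts were 269, 332 and 271 in WT and 267, 323 and 265 in S6K1-/- libraries, with a log2 difference of 0.03 (adjusted p = 0.870). The strand setting of the counting is not given in the sources used here, so reads of the shared stretch cannot be assigned to either gene with certainty.

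**Figure D2:**
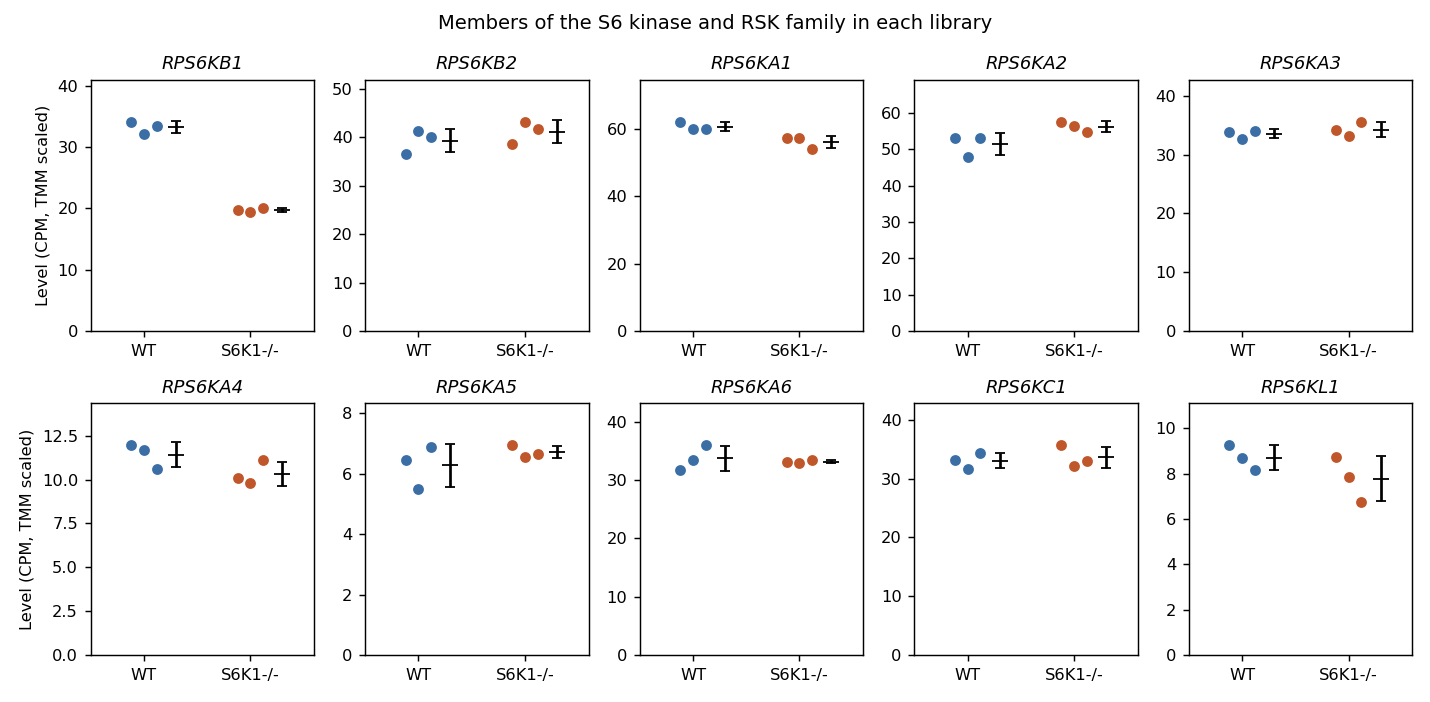
Each panel plots 1 member, with the level in CPM (TMM scaled) of each library as a point for 3 WT libraries in blue and 3 S6K1-/- libraries in orange, and a bar for the group mean ± SD beside them. RPS6KB1 fell from 33.3 to 19.8 CPM with no overlap, RPS6KA1 and RPS6KA2 also do not overlap between groups but differ by far less, and the groups overlap in the other 7 members.

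Among the 4 RSK genes, RPS6KA1 and RPS6KA2 had groups that did not overlap, in opposite directions, and neither passed the threshold. RPS6KA1, which encodes RSK1, had counts of 1514, 1476 and 1394 in WT and 1343, 1372 and 1180 in S6K1-/- libraries. Its level was 60.7 ± 1.25 CPM in WT and 56.2 ± 1.76 in S6K1-/- cells (SD, n = 3 each). The log2 difference was -0.11 with an interval of -0.20 to -0.02 (edgeR, unadjusted p = 0.0231, adjusted p = 0.114).

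RPS6KA2, which encodes RSK3, had counts of 1296, 1177 and 1236 in WT and 1353, 1351 and 1191 in S6K1-/- libraries. Scaled to CPM, the S6K1-/- libraries were all above the WT libraries, at 51.4 ± 3.09 CPM in WT and 56.3 ± 1.46 in S6K1-/- cells (SD, n = 3 each). The log2 difference was 0.13 with an interval of 0.02 to 0.24 (edgeR, unadjusted p = 0.0217, adjusted p = 0.110). Of the other rows named after this gene, RPS6KA2-IT1 had 1 to 7 counts in each library and RPS6KA2-AS1 had 0 in all 6.

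RPS6KA3, which encodes RSK2 and is the gene mutated in Coffin-Lowry syndrome, had counts of 823, 803 and 792 in WT and 801, 792 and 775 in S6K1-/- libraries. The groups overlapped, and the log2 difference was 0.03 with an interval of -0.08 to 0.14 (edgeR, adjusted p = 0.770). RPS6KA6, which encodes RSK4, had counts of 772, 823 and 835 in WT and 775, 788 and 727 in S6K1-/- libraries. Its log2 difference was -0.03 with an interval of -0.15 to 0.10 (edgeR, adjusted p = 0.828). The 3 S6K1-/- libraries of RPS6KA6 lay within the range of the WT libraries, at 32.9 to 33.4 CPM against 31.7 to 35.9 CPM.

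Per length of merged exons, the WT level of each MSK gene was below that of each RSK gene, and neither passed the threshold. RPS6KA4, which encodes MSK2, had counts of 291, 288 and 246 in WT and 237, 235 and 242 in S6K1-/- libraries. In CPM the groups overlapped, since the third S6K1-/- library (11.1 CPM) was above the third WT library (10.6 CPM). The log2 difference was -0.15 with an interval of -0.32 to 0.03 (edgeR, adjusted p = 0.295). RPS6KA5, which encodes MSK1, had counts of 157, 135 and 160 in WT and 163, 157 and 145 in S6K1-/- libraries. Its log2 difference was 0.10 with an interval of -0.12 to 0.32 (edgeR, adjusted p = 0.602), the widest interval of the 10. The exons of RPS6KA5 share 309 bp with DGLUCY on the opposite strand, or 1.1% of their length.

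Of the divergent members, RPS6KC1 had counts of 807, 780 and 797 in WT and 838, 770 and 720 in S6K1-/- libraries. The log2 difference was 0.03 with an interval of -0.10 to 0.15 (edgeR, adjusted p = 0.833). RPS6KL1 had counts of 225, 214 and 189 in WT and 205, 188 and 147 in S6K1-/- libraries. Its groups overlapped, with the third library the lowest in each, and the log2 difference was -0.16 with an interval of -0.38 to 0.06 (edgeR, adjusted p = 0.358).

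Over the family, 1 of 10 members was called lower and 0 higher at an adjusted p under 0.001 by edgeR, DESeq2 and limma alike, where 2.54% and 1.42% of all genes were. At an adjusted p under 0.05 the count was still 1 of 10, against 13.8% of all genes, and at an unadjusted p under 0.05 it was 3 of 10 with edgeR (2 lower and 1 higher), against 26.4%. The groups did not overlap for 3 of 10 members, against 30.7% of all genes, which is close to the background. The median log2 difference over the 10 members was -0.00, as it was over all genes tested. Without RPS6KB1, the median size of the log2 difference was 0.10 and the largest 0.16, and the median over all genes was 0.11. The largest was that of RPS6KL1, which moved to -0.062 without S6K1-/- replicate 3 and to -0.25 without S6K1-/- replicate 1. That of RPS6KA2 moved to 0.081 without WT replicate 2. That of RPS6KB2 moved to 0.024 without WT replicate 1, to 0.029 without S6K1-/- replicate 2, to 0.10 without WT replicate 2 and to 0.11 without S6K1-/- replicate 1. With 1 library left out, that of RPS6KA3 ran from 0.011 (without S6K1-/- replicate 3) to 0.057 (without S6K1-/- replicate 2). The difference of RPS6KA5 moved to 0.013 without WT replicate 2 and to 0.18 without WT replicate 3. The intervals of these 9 members reached from -0.38 to 0.32, so a rise of any of them by more than 25.2% lies outside its interval.

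**Figure D3:**
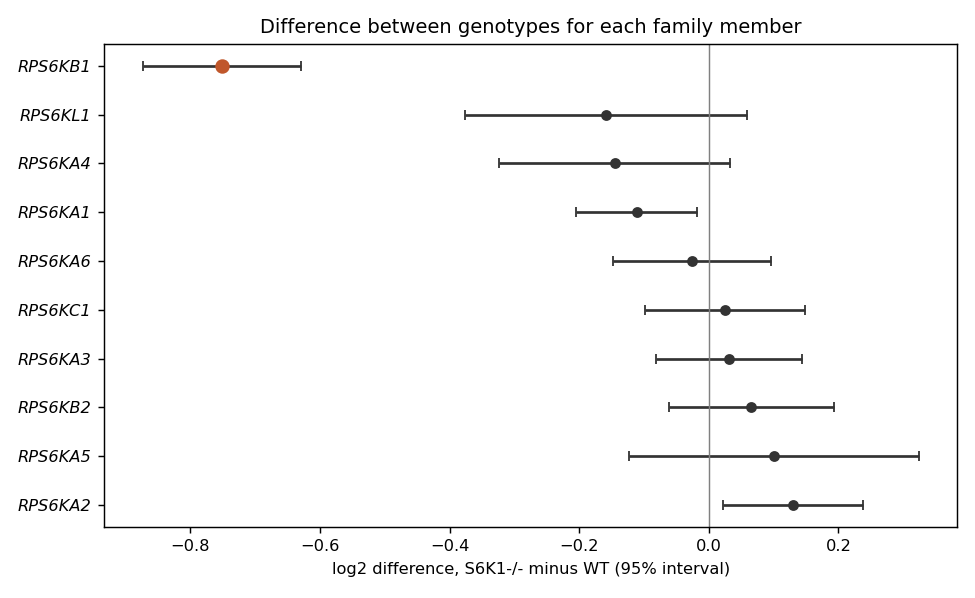
Points show the log2 difference of each member, S6K1-/- minus WT, with its 95% interval from the edgeR fit as a bar, for 3 libraries in each group. RPS6KB1, in orange, stands at -0.75 with an interval of -0.87 to -0.63, while the intervals of the other 9 members lie between -0.38 and 0.32.

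To compare members with each other, CPM was divided by the length of the merged exons of each gene in kb. On this per-length scale, RPS6KA1 was the highest in WT cells at 10.3 ± 0.212 CPM per kb (SD, n = 3), followed by RPS6KB2 at 6.76 ± 0.421 and RPS6KA2 at 6.23 ± 0.374. RPS6KC1 came next at 5.34 ± 0.209, RPS6KB1 had rank 5 at 4.32 ± 0.129, and RPS6KA6 and RPS6KA3 followed at 3.75 ± 0.237 and 3.42 ± 0.0772. RPS6KA4 lay between 2.78 and 3.14 CPM per kb in the 3 WT libraries. RPS6KL1 was at 1.16 ± 0.0735 and RPS6KA5 was the lowest at 0.224 ± 0.0255 CPM per kb. Among neighbours in this order, only the WT ranges of RPS6KB2 and RPS6KA2 overlapped. In S6K1-/- cells RPS6KB1 was at 2.57 ± 0.0481 CPM per kb and moved from rank 5 to rank 8, next to RPS6KA4 at 2.72 ± 0.180, whose range it overlapped.

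The order depends on which length is used. With the length of the selected transcript, RPS6KB2 was the highest in WT cells and RPS6KA1 the second, and RPS6KB1 moved from rank 4 to rank 7, above RPS6KA4 in S6K1-/- cells. RPS6KA5 has the longest merged exons of the members, at 27982 nt, and it also had the lowest CPM of the 10 before division by length, at 6.28 ± 0.714 in WT cells (SD, n = 3).

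**Figure D4:**
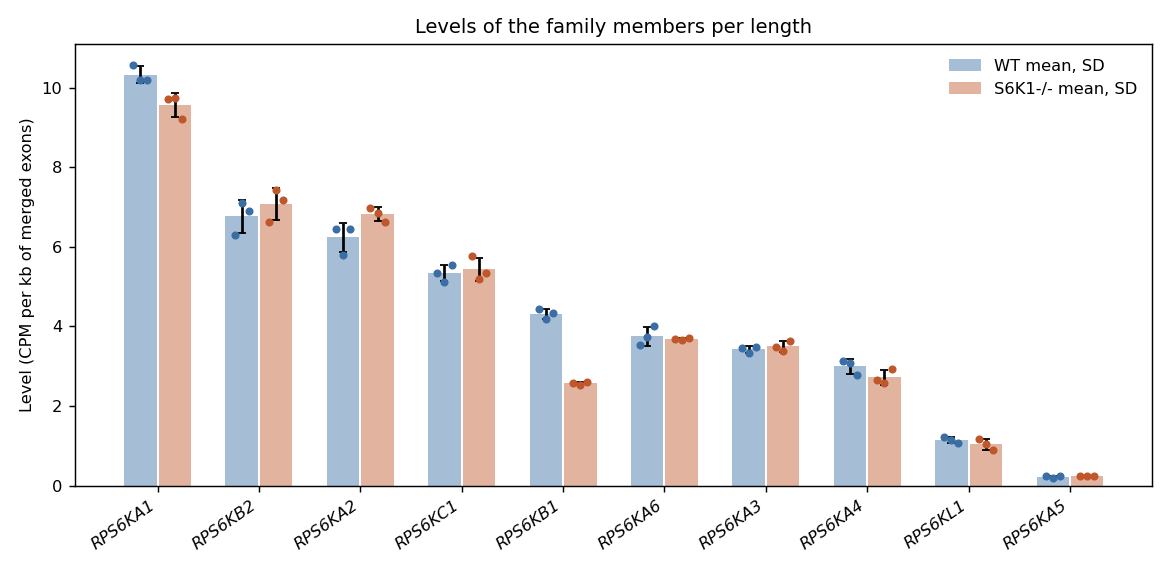
Bars show the mean level in CPM per kb of merged exons for WT in blue and S6K1-/- in orange, with SD as error bars (n = 3 each) and the libraries as points, ordered by the WT mean. RPS6KA1 is the highest at 10.3 CPM per kb in WT and RPS6KA5 the lowest at 0.224, and the pair of bars that differ most is that of RPS6KB1, at 4.32 and 2.57.

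The balance within the S6 kinases was described from the same per-length levels. In WT replicates 1 to 3, RPS6KB1 made up 41.3%, 37.0% and 38.7% of the sum of RPS6KB1 and RPS6KB2, and in S6K1-/- replicates 1 to 3 its share was 27.9%, 25.3% and 26.7%. All S6K1-/- libraries were below all WT libraries, with means of 26.6% ± 1.31 and 39.0% ± 2.17 (SD, n = 3 each). The sum of the S6 kinases was 11.1 ± 0.309 CPM per kb in WT and 9.65 ± 0.398 in S6K1-/- cells, a ratio of 0.870 with no overlap of the libraries. These values depend on the length used. With the selected transcript the share was 21.3% in WT and 13.3% in S6K1-/- cells, and the sums were 28.8 ± 1.25 and 27.4 ± 1.36 CPM per kb, a ratio of 0.950 with overlap. The sum of the 4 RSK genes was 23.7 ± 0.580 and 23.6 ± 0.336 CPM per kb, and that of the MSK genes 3.22 ± 0.176 and 2.96 ± 0.180, both with overlap. The share and the sum of the S6 kinases include RPS6KB1, the gene used as the label check, and none of these sums was tested.

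The coefficient of variation of CPM within a group ran from 2.06% for RPS6KA1 to 11.4% for RPS6KA5 in WT libraries. For RPS6KB1 it was 2.99% in WT and 1.88% in S6K1-/- libraries, where counting error alone gives 3.54% and 4.69%.

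The 5 nearest tested genes on each side of RPS6KB1 on chromosome 17 were read beside it, and whether the region as a whole changed was not tested. At an adjusted p under 0.001, 0 of 10 were called in either direction by edgeR, DESeq2 or limma, and 1 of 10, VMP1, had an unadjusted p under 0.05 with each tool. Over all genes these shares were 3.96% and 26.4%. TUBD1, a tubulin gene that starts 100 bp from the start of RPS6KB1 and runs the other way on the opposite strand, had counts of 337, 309 and 288 in WT and 311, 277 and 240 in S6K1-/- libraries. Its log2 difference was -0.11 (edgeR, adjusted p = 0.437), and it moved to -0.19 without S6K1-/- replicate 1, to -0.053 without S6K1-/- replicate 3 and to -0.054 without WT replicate 1. VMP1, an autophagy gene, was at 0.12 (edgeR, adjusted p = 0.105).

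The genes above and below the kinases were described from lists set by their role. The counts of each list at an unadjusted p under 0.05 stand beside 26.4% of all genes. Of 10 genes of mTORC1, its regulators and PDK1, 0 were called by edgeR, DESeq2 or limma, and the median log2 difference was 0.03. At an unadjusted p under 0.05, edgeR had 1 lower and 2 higher. MTOR, the kinase of the complex, was at 156 ± 13.7 CPM in WT and 162 ± 9.36 in S6K1-/- cells (SD, n = 3 each), and PDPK1, which encodes PDK1, at 33.0 ± 0.687 and 33.7 CPM. TSC2, an inhibitor of mTORC1 and the gene with the smallest p of this list, was at 72.6 ± 0.442 and 80.8 ± 2.75 CPM (log2 difference 0.15, edgeR adjusted p = 0.0201). Of 13 genes of the ERK and p38 cascades, edgeR and limma called 0, the DESeq2 Wald test called 1 higher, and the median was -0.01. At an unadjusted p under 0.05, edgeR had 4 lower and 2 higher. MAPK13, which encodes a p38 isoform, had the smallest p, with counts of 438, 386 and 379 in WT and 295, 298 and 276 in S6K1-/- libraries (log2 difference -0.41, edgeR adjusted p = 0.00121). MAPK3, which encodes ERK1 and was the gene that DESeq2 called, had nearly the same p in the other direction (log2 difference 0.30, edgeR adjusted p = 0.00124). Of 6 phosphatase genes that act on these kinases or their substrates, 0 were called by any of these tools, and at an unadjusted p under 0.05 edgeR had 2 lower and 2 higher. PHLPP2, a phosphatase of AGC kinases, was at 81.6 ± 5.86 and 95.5 ± 2.14 CPM (log2 difference 0.23, edgeR adjusted p = 0.00616).

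Of 14 genes that encode S6 kinase substrates, 0 were called by edgeR, DESeq2 or limma, and the median was 0.00. At an unadjusted p under 0.05, edgeR had 0 lower and 1 higher. RPS6, the substrate that names the family, was at 1277 ± 40.8 CPM in WT cells and had a log2 difference of -0.01 (edgeR, adjusted p = 0.899). NCBP1, a subunit of the nuclear cap-binding complex, had the smallest p of the list, with a log2 difference of 0.11 (edgeR, adjusted p = 0.0990). These are RNA levels, and the phosphorylation of the proteins was not measured.

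Of 13 genes that encode RSK or MSK substrates, 1 rose and 0 fell by edgeR, DESeq2 or limma, with a median of 0.07. At an unadjusted p under 0.05, edgeR had 1 lower and 3 higher. The gene that rose was FOS, an immediate early transcription factor, with counts of 127, 126 and 119 in WT and 170, 201 and 187 in S6K1-/- libraries. All S6K1-/- libraries were above all WT libraries, and the log2 difference was 0.65 with a standard error of 0.101 (edgeR, adjusted p = 4.05e-04). The call was lost, with an adjusted p between 0.00131 and 0.00315, when WT replicate 1, WT replicate 2, WT replicate 3, S6K1-/- replicate 2 or S6K1-/- replicate 3 was left out, and it held without S6K1-/- replicate 1. Over the 56 genes of these 5 lists, 0 were lower and 1 was higher, against 2.54% and 1.42% of all genes, and at an unadjusted p under 0.05 there were 8 lower and 10 higher.

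The other AGC kinases are the group from which the family is drawn. Of 47 listed, 44 were tested, with 1 lower and 1 higher by edgeR, where 2.54% and 1.42% of all genes were, and with 2 higher by the DESeq2 Wald test. The median log2 difference was 0.03. The groups did not overlap for 13 of 44, or 29.5%, where 30.7% of all genes had groups that did not. PRKCH, a protein kinase C gene, had counts of 460, 431 and 440 in WT and 683, 687 and 626 in S6K1-/- libraries (log2 difference 0.64, edgeR adjusted p = 2.28e-06). PRKCB, another protein kinase C gene, fell from 226, 185 and 212 to 114, 80 and 98 counts (log2 difference -1.03, edgeR adjusted p = 6.72e-05).

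**Figure D5:**
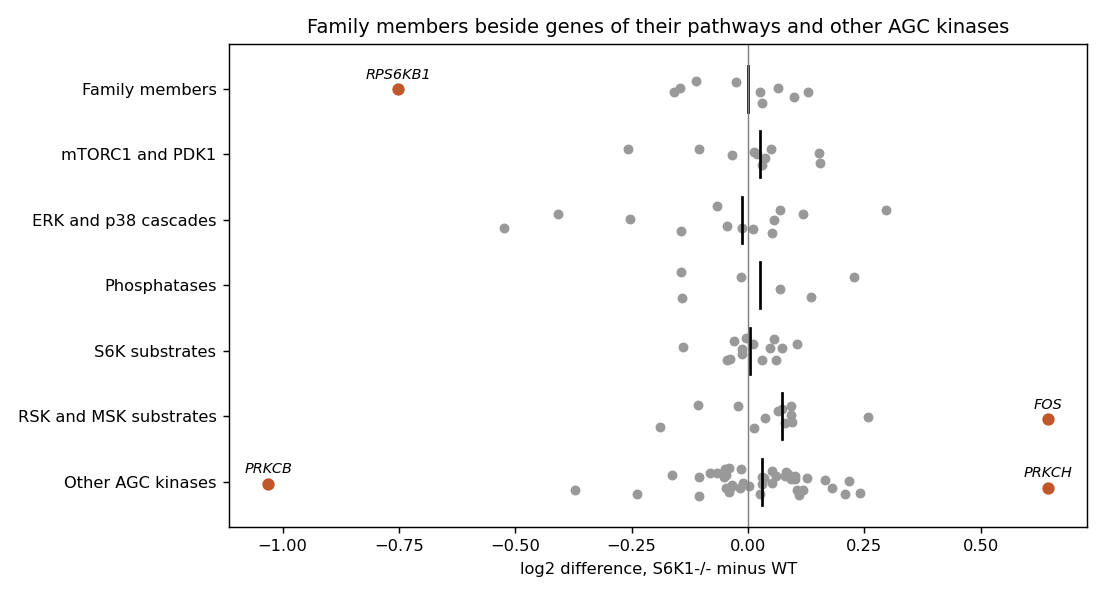
Each point is 1 gene, placed by its log2 difference, S6K1-/- minus WT (3 libraries each), in the row of its list; orange points passed an adjusted p under 0.001 and a black line marks the median of each row. RPS6KB1 at -0.75 is the only called member, FOS at 0.65 the only called gene of the pathway lists, and PRKCH at 0.64 and PRKCB at -1.03 are called among the other AGC kinases.

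Across all genes, the 3 whose pattern was most like that of RPS6KB1 were taken as those with the smallest root mean square difference of log2(CPM + 1), each centred on its own mean over the 6 libraries. Ranked over the 10483 genes whose mean level reached 10 CPM, these were TRIM22 at 0.0386, SULT1C4 at 0.0433 and FAM189A2 at 0.0455. Their log2 differences were -0.73, -0.73 and -0.69. With 6 libraries in 2 groups, the likeness largely restates the size of the group difference.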

How the data were processed

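Bulk RNA sequencing of 3 WT and 3 S6K1-/- H7 hESC libraries was analyzed. The authors deposited raw counts per gene symbol. Per the labels and methods, a stranded mRNA kit was used, and the submitters' processing notes name Trim Galore 0.6.5, Bowtie2 2.4.5, featureCounts, DESeq2 1.37.4 and the GRCh38 build. Bowtie2 does not split reads across introns when it aligns them to a genome; its effect on these counts was not tested. The strand setting, the annotation and the handling of reads with several matches are not given in the sources used here. A second deposited table holds the authors' own fold changes and p-values and was not used.

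Counts were tested across all genes with edgeR 4.0.16 (R 4.3.3): filterByExpr, TMM scaling, and a quasi-likelihood F test of S6K1-/- against WT on the 6 libraries, with Benjamini-Hochberg adjustment and a call at 0.001. Intervals are 95%. No columns were left unassigned. Alternatives used DESeq2 1.42.0, limma 3.58.1 (voom), other scalings and filters, a replicate block, each replicate left out in turn, and an adjusted p under 0.05. CPM per kb used exon lengths of GENCODE release 44, and copies of coding exons were searched with blastn 2.17.0. Named genes were the members, the called genes of each list or else the gene with the smallest p, rows that begin with RPS6K, the called genes of the pluripotency and neuronal marker lists with POU5F1, FOXA2, MIXL1 and markers at 0, and the 3 genes most like RPS6KB1; MTOR, PDPK1, RPS6, MAPK3, TUBD1 and VMP1 were named for their role, place or p after values were seen. The list of other AGC kinases leaves out 1 gene that is not reported here. Members and lists were chosen with earlier results of these data known.

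Replicate libraries differed beyond sampling noise, with a chi-square of 2.23 to 4.51 per degree of freedom, so none was counted as a repeat deposit. At these depths the counting error of 1 library was largest for RPS6KA5, at 8.15% of its mean WT level. The fit was tested on simulated data.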

Additional observations from a re-analysis of the deposited data

How the results depend on the processing

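RPS6KB1 stayed lower and past the threshold under all 13 alternatives (log2 difference -0.77 to -0.72), and 0 of the other 9 members were called under any of them. The adjusted p ran from 0.0776 to 0.347 for RPS6KA1 and from 0.0919 to 0.327 for RPS6KA2. The log2 difference of RPS6KA6 ran from -0.060 to 0.029 with 1 library left out, turning above 0 without WT replicate 3. That of RPS6KC1 ran from -0.018 to 0.059, turning below 0 without S6K1-/- replicate 1 (-0.018) or WT replicate 2 (-0.0026). Neither was called.

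Genes lower and higher across the table numbered 982 and 591 with no filter on low counts, and 1622 and 1067 at an adjusted p under 0.05. Leaving out 1 library gave 313 (without S6K1-/- replicate 3) to 445 lower and 175 (without S6K1-/- replicate 1) to 235 higher. For the pathway lists, no filter gave 2 lower and 3 higher, upper quartile scaling 1 lower, the DESeq2 Wald test 2 higher, an adjusted p under 0.05 gave 5 lower and 5 higher, and leaving out 1 library gave 0 to 1 in either direction. For the other AGC kinases, no filter gave 2 lower and 2 higher, the DESeq2 Wald test 2 higher, and an adjusted p under 0.05 gave 3 lower and 4 higher. The share of RPS6KB1 in the S6 kinases was 46.1% in WT and 32.7% in S6K1-/- cells with the longest transcript, and 21.3% and 13.3% with the selected transcript. Leaving out 1 library gave 37.9% to 40.0% in WT and 26.0% to 27.3% in S6K1-/- cells. The cause of these shifts was not tested.

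Libraries with the same replicate number correlated at 0.0017 to 0.032 in their deviations from the group means. WT and S6K1-/- libraries with different numbers correlated at -0.052 to 0.034. Since each deviation is taken from a mean of 3 libraries, these values cannot decide whether the numbers pair the libraries. With the replicate block, 423 genes were lower and 241 higher, RPS6KB1 was at -0.75, and the pathway lists had 0 higher, since FOS had an adjusted p of 0.00129. Depth limits RPS6KA5, RPS6KL1 and RPS6KA4 most, since they had the fewest counts of the members.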
